A study of Mus musculus with 7 samples.

Results

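Expression of 8 genes of the lymphatic endothelium and of the VEGF-C axis was compared between mice with a ligated bile duct (BDL) and sham-operated mice in the extrahepatic bile duct (EHBD), collected 48 hours after surgery. The genes were Prox1, Flt4, Lyve1, Pdpn, Mmrn1, Reln, Vegfc and Vegfd. They were taken by symbol from a table of 56065 genes, each matched 1 Ensembl identifier, and all 8 were among the 25209 genes tested. The 7 libraries came from whole ducts of adult wild-type C57BL/6J mice and comprised 4 BDL libraries (2 female and 2 male) and 3 sham libraries (1 female and 2 male). The abdomen was opened in every mouse, sham controls included, and bile flow was blocked only in BDL mice, by a tie on the duct where it nears the gut. The study counts these samples in mice, although the labels do not tie each library to 1 animal.

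Lymphatic capillaries take up tissue fluid and carry dendritic cells and lymphocytes to lymph nodes. The transcription factor PROX1 sets the identity of their endothelium, and the secreted ligands VEGF-C and VEGF-D drive its growth through the receptor VEGFR3, which Flt4 encodes. Several of these genes are active in other cells as well, with Lyve1 in resident macrophages and liver sinusoids, Prox1 in hepatocytes, Pdpn in mesothelium and stromal cells, and Mmrn1 in platelets and megakaryocytes.

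Libraries held between 48882420 and 61291821 counts, and each of the 8 genes had between 364 and 8309 counts per library. Levels are given as CPM, the count of a gene relative to the TMM-scaled size of its library. The TMM factor was 0.608 in sham replicate 3, which held the most acinar transcripts, and between 1.03 and 1.17 in the other libraries. A factor below 1 raises the CPM of a library. Markers of cholangiocytes, the epithelium of the duct, summed to between 2940 and 4840 CPM in BDL and between 1606 and 2126 CPM in sham libraries. Transcripts of neighbouring organs were present in unequal amounts. The 10 hepatocyte markers summed to 9327, 86.3, 130 and 35527 CPM in BDL replicates 1 to 4, against 482, 1290 and 1720 CPM in sham replicates 1 to 3, and the 12 pancreatic acinar markers ranged from 20.8 to 41030 CPM in BDL and from 35984 to 301118 CPM in sham libraries. Fits were repeated without BDL replicates 1 and 4, where hepatocyte transcripts were high, and without BDL replicates 2 and 3, where acinar transcripts were high, and are given where they ended or changed a call.

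The lymphatic endothelial genes were called in both directions. Mmrn1 fell 9.54-fold and Reln 5.44-fold in BDL, Flt4 fell 1.86-fold, Pdpn rose 2.52-fold and the ligand Vegfd rose 2.25-fold, whereas Prox1, Lyve1 and Vegfc did not pass the test. Thus 2 of 8 genes were higher, 3 lower and 3 had no call at an adjusted p under 0.05. Over all tested genes 11.8% were called higher, 11.0% lower and 22.8% in either direction. These shares are also the background for the counts of called markers given below. The 5 called genes were also the 5 whose BDL and sham libraries did not overlap, a pattern seen in 36.6% of all tested genes. The median log2 fold change was -0.54 over the 8 genes and -0.01 over all tested genes. Prox1 (-0.47, SE 0.59) and Lyve1 (-0.62, SE 0.32), which had no call, had negative log2 fold changes. Differences in change between the genes were not tested. Only 1 gene was called higher (Vegfd) when BDL replicate 2 or sham replicate 1 was left out.

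**Figure D1:**
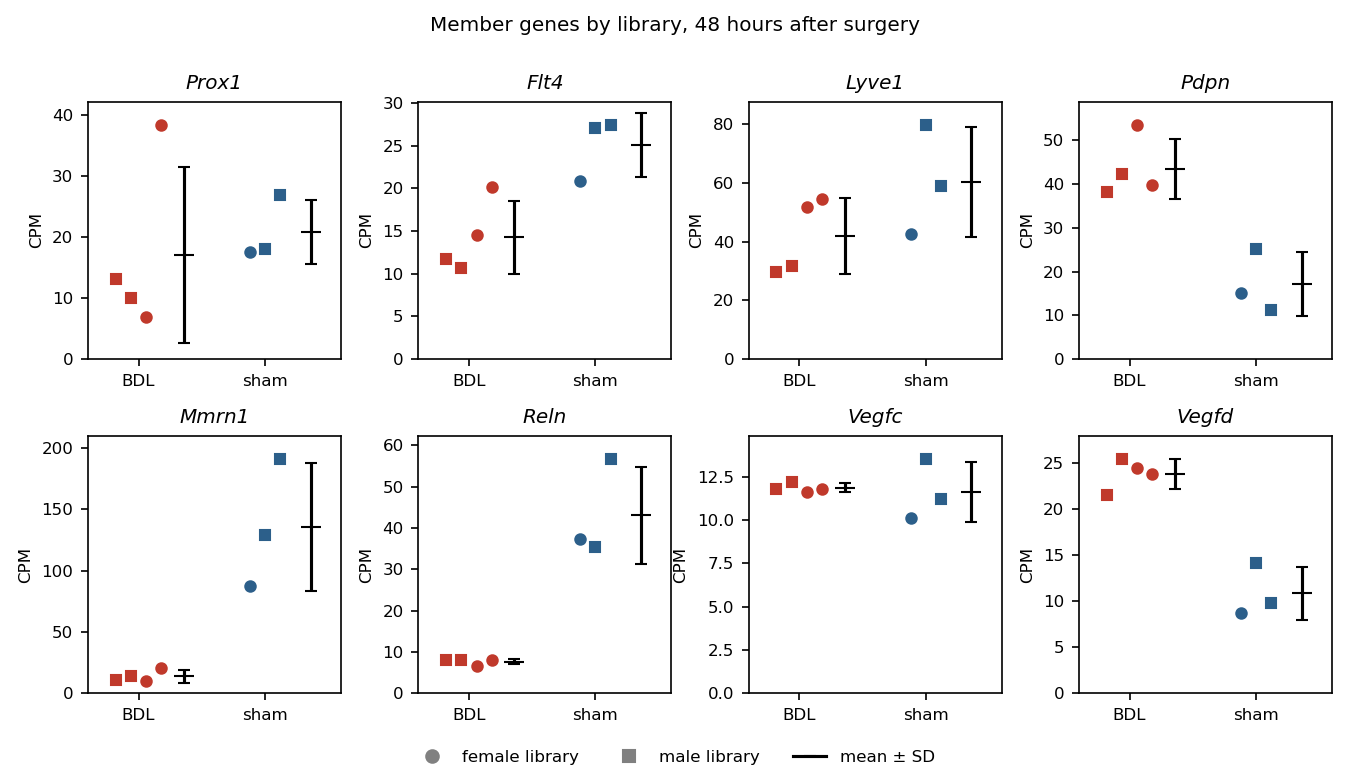
CPM (y axis, linear from 0) of the 8 genes in each BDL library (red, left) and sham library (blue, right), with circles for female and squares for male libraries and bars for the mean ± SD (n = 4 BDL and 3 sham). Mmrn1 and Reln sit lower in all 4 BDL libraries than in all 3 sham libraries, Pdpn and Vegfd sit higher, and 1 BDL library stands at 38.3 CPM for Prox1.

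The promoters of the 4 genes with the largest fold changes are shown because 2 of them fell and 2 rose. Each sequence is the 250 bases before the start of the canonical transcript on GRCm39, written 5′ to 3′ on the strand of the gene, with motif matches in capitals. Mmrn1 was read from chr6:60921210-60921459 (plus strand), Reln from chr5:22549701-22549950 (minus strand), Pdpn from chr4:143026144-143026393 (minus strand) and Vegfd from chrX:163155990-163156239 (plus strand).
Mmrn1: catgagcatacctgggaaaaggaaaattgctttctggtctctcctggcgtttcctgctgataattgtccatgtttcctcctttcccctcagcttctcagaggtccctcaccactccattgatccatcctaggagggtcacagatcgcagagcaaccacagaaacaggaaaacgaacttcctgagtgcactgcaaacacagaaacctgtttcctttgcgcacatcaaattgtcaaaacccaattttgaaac
Reln: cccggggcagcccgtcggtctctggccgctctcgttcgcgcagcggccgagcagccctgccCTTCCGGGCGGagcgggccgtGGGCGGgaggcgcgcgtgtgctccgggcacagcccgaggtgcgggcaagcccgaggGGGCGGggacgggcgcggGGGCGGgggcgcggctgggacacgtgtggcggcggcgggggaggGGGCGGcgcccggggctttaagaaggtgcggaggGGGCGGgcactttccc
Pdpn: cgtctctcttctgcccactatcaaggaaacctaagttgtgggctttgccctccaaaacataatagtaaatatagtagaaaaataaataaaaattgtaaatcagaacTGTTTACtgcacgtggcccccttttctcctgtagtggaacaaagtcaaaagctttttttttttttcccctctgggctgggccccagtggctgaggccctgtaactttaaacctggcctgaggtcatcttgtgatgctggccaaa
Vegfd: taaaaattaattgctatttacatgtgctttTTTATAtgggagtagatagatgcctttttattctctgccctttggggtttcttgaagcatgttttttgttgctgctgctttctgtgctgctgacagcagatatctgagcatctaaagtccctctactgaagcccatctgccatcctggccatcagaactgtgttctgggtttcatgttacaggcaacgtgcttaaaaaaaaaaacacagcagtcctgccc
Motifs were searched on both strands as a SOX motif (AACAAT), a motif of GATA factors (AGATAA), an ETS motif (CCGGAAG), a FOX motif (TGTTTAC), an SP motif (GGGCGG) and a TATA box (TATAAA). The Reln promoter was 80.8% G and C and held 6 matches to SP, a motif present in 36.3% of 21757 promoters, and 1 to ETS (6.89% of promoters) that overlapped the first of them. The Pdpn promoter held 1 FOX match 144 to 138 bases before the start (2.72% of promoters), and that of Vegfd held 1 TATA match on the opposite strand 220 to 215 bases before it (11.9% of promoters). The Mmrn1 promoter, 46.8% G and C, held none of the 6 motifs. Of the other 4 genes, Lyve1 had 1 GATA match (9.61% of promoters), Prox1 had 1 SP match, and Flt4 and Vegfc had none. A match describes the letters and is not evidence of a bound site.

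Prox1 (ENSMUSG00000010175; chromosome 1, 189850232 to 189904637, minus strand, GRCm39) encodes the homeobox factor that specifies lymphatic endothelium. It stood at 13.1, 9.97, 6.86 and 38.3 CPM in BDL replicates 1 to 4, against 17.6, 18.1 and 26.9 CPM in sham replicates 1 to 3. BDL replicates 1 to 3 were below every sham library and BDL replicate 4 was above all of them. The means were 17.1 ± 14.4 CPM in BDL (SD, n = 4) and 20.9 ± 5.25 CPM in sham (SD, n = 3). The log2 fold change was -0.47 with an SE of 0.59 (adjusted p = 0.609). BDL replicate 4 was also the library with 35527 CPM of hepatocyte markers. Without it the log2 fold change was -1.10 (adjusted p = 0.0208), without BDL replicates 1 and 4 it was -1.26 (adjusted p = 0.0217), and without BDL replicates 2 and 3 it was 0.06 (adjusted p = 0.944). With the summed acinar markers as a covariate it was -1.61 (adjusted p = 0.0424), and adjusted p-values over all alternatives ran from 0.0208 to 0.944. The part of hepatocyte transcripts in the Prox1 level was not tested. Prox1os, which lies on the opposite strand and cannot be told apart by an unstranded kit where the genes overlap, averaged 0.561 CPM in BDL and 0.252 CPM in sham libraries.

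Flt4 (ENSMUSG00000020357; chromosome 11, 49500090 to 49543582, plus strand), which encodes the receptor of VEGF-C and VEGF-D, was lower in BDL. Its levels were 11.7, 10.7, 14.5 and 20.2 CPM in BDL replicates 1 to 4, against 20.8, 27.0 and 27.4 CPM in sham replicates 1 to 3. The groups did not overlap, but BDL replicate 4 and sham replicate 1 lay next to each other. The means were 14.3 ± 4.30 CPM in BDL (SD, n = 4) and 25.1 ± 3.70 CPM in sham (SD, n = 3). This was a log2 fold change of -0.89 with an SE of 0.26 (adjusted p = 0.0445). In bulk tissue, fewer cells of a type and less RNA per cell cannot be told apart. The call was close to the threshold and ended without BDL replicate 1, 2 or 3 (adjusted p = 0.155, 0.148 and 0.0749) and without sham replicate 2 or 3 (adjusted p = 0.108 and 0.118). It also ended without BDL replicates 2 and 3 together (adjusted p = 0.192) and in a test against a 1.5-fold change (adjusted p = 0.207, the highest over the alternatives, with 0.00368 the lowest).

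Of the genes for the 2 surface glycoproteins, Pdpn rose and Lyve1 had no call. Lyve1 (ENSMUSG00000030787; chromosome 7, 110448585 to 110462460, minus strand) encodes a hyaluronan receptor. It stood at 29.6, 31.7, 51.9 and 54.4 CPM in BDL replicates 1 to 4, against 42.5, 79.7 and 58.8 CPM in sham replicates 1 to 3. The groups overlapped, since the female BDL libraries (replicates 3 and 4) were above the female sham library (replicate 1). The male BDL libraries were below both male sham libraries. The means were 41.9 ± 13.1 CPM in BDL (SD, n = 4) and 60.3 ± 18.7 CPM in sham (SD, n = 3). The log2 fold change was -0.62 with an SE of 0.32 (adjusted p = 0.205). Without sham replicate 1, the only female sham library, the log2 fold change was -1.18 (adjusted p = 0.017, and 0.553 at most in any alternative).

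Lyve1 was set beside markers of the other cells known to make it. The 10 resident macrophage markers summed to 284, 244, 389 and 406 CPM in BDL replicates 1 to 4, against 415, 865 and 439 CPM in sham replicates 1 to 3. Sham replicate 2 had both the highest macrophage sum and the highest Lyve1 level, and BDL replicates 1 and 2 had the lowest of both. Of these markers 3 were lower in BDL and 7 had no call, where 11.0% of all tested genes were lower. The lower ones were Csf1r, the receptor of a macrophage growth factor (log2 fold change -1.78, SE 0.27), the adhesion receptor Adgre1 (-1.78, SE 0.29) and the folate receptor Folr2 (-1.84, SE 0.48). The 6 markers of liver sinusoidal endothelium summed to between 11.6 and 83.8 CPM in BDL and between 36.8 and 71.1 CPM in sham libraries. Oit3 was the 1 marker of the 6 with a call and was higher in BDL (log2 fold change 3.99, SE 0.85, adjusted p = 0.0155), at 2.80, 1.28, 0.741 and 6.57 CPM in BDL replicates 1 to 4, against 0.212, 0.109 and 0.161 CPM in sham replicates 1 to 3. Stab2 and Clec4g, picked after their values were seen, were both at 0 in BDL replicate 2 and at 0.0329 CPM in BDL replicate 3. In BDL replicates 1 and 4, Stab2 was at 3.54 and 10.2 CPM and Clec4g at 2.57 and 21.4 CPM. Sham libraries held at most 1.52 CPM of Stab2 and 0.73 CPM of Clec4g. The part of these cells in the Lyve1 level was not tested.

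**Figure D2:**
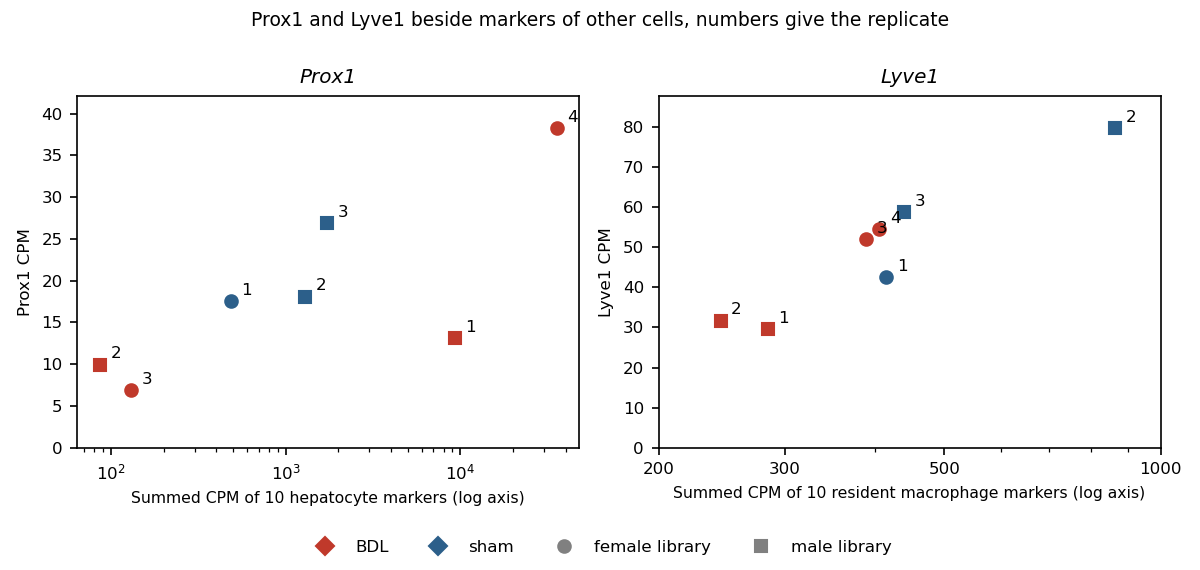
Prox1 CPM (left, y axis) against the summed CPM of 10 hepatocyte markers (x axis, log scale), and Lyve1 CPM (right, y axis) against the summed CPM of 10 resident macrophage markers (x axis, log scale), with 1 point per library, red for BDL and blue for sham, circles for female and squares for male, and the replicate number beside it. BDL replicate 4 is the highest in both measures on the left, and sham replicate 2 is the highest in both on the right.

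Pdpn (ENSMUSG00000028583; chromosome 4, 142990871 to 143026143, minus strand) encodes podoplanin, the ligand of the platelet receptor CLEC-2. It was at 38.2, 42.4, 53.5 and 39.9 CPM in BDL replicates 1 to 4, against 15.1, 25.2 and 11.2 CPM in sham replicates 1 to 3. Every BDL library was above every sham library. The means were 43.5 ± 6.88 CPM in BDL (SD, n = 4) and 17.2 ± 7.27 CPM in sham (SD, n = 3). This was a log2 fold change of 1.34 with an SE of 0.31 (adjusted p = 0.0202). The call ended without BDL replicate 2 (adjusted p = 0.0557), without sham replicate 1 (adjusted p = 0.103), without BDL replicates 2 and 3 (adjusted p = 0.061) and in the test against a 1.5-fold change (adjusted p = 0.0718), and its adjusted p-values ran from 9.62e-05 to 0.103 over the alternatives. Markers of mesothelium, which also makes podoplanin, summed to between 555 and 1156 CPM in BDL and between 253 and 402 CPM in sham libraries. Of these 5 markers, Msln was higher (log2 fold change 3.12, SE 0.24) and Upk3b, Upk1b, Lrrn4 and Wt1 were lower. The 7 fibroblast markers summed to between 5193 and 7729 CPM in BDL and between 3704 and 6157 CPM in sham libraries, with 2 higher and 3 lower. The part of these cells in the rise of Pdpn was not tested.

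Transcripts of the secreted proteins, Mmrn1 and Reln, showed the largest decreases of the set. Mmrn1 (ENSMUSG00000054641; chromosome 6, 60901960 to 60966362, plus strand) encodes multimerin 1, a large protein that binds factor V. It was at 10.7, 13.8, 9.89 and 20.9 CPM in BDL replicates 1 to 4, against 87.6, 129 and 191 CPM in sham replicates 1 to 3. The highest BDL library was thus far below the lowest sham library. The means were 13.8 ± 5.01 CPM in BDL (SD, n = 4) and 136 ± 52.2 CPM in sham (SD, n = 3). The log2 fold change was -3.25 with an SE of 0.38 (adjusted p = 0.00173). The 7 markers of platelets and megakaryocytes had no call, and their sum ran from 40.9 to 110 CPM in BDL and from 20.7 to 52.6 CPM in sham libraries. Pf4 averaged 55.8 CPM in BDL and 27.2 CPM in sham libraries, and Ppbp averaged 10.4 and 1.8 CPM. The other markers had negative log2 fold changes and stood at no more than 2.97 CPM in any library. Of these, Gp9, part of the platelet receptor for von Willebrand factor, was at most 0.135 CPM in BDL and 0.342 CPM in sham libraries.

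Reln (ENSMUSG00000042453; chromosome 5, 22089452 to 22549700, minus strand) encodes reelin, a matrix glycoprotein known for guiding neurons in the developing brain. It was at 8.16, 8.01, 6.70 and 7.96 CPM in BDL replicates 1 to 4, against 37.3, 35.3 and 56.6 CPM in sham replicates 1 to 3. The BDL libraries were close to one another and all below the sham libraries. The means were 7.71 ± 0.678 CPM in BDL (SD, n = 4) and 43.0 ± 11.8 CPM in sham (SD, n = 3). This was a log2 fold change of -2.44 with an SE of 0.20 (adjusted p = 0.000621). Which cells made the Reln transcripts was not tested. Mmrn1 and Reln passed in each of the 19 alternative fits. Their log2 fold changes there ran from -3.71 to -2.99 for Mmrn1 and from -2.61 to -2.25 for Reln.

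Of the 2 ligands of the receptor, Vegfd rose and Vegfc had no call. Vegfd (ENSMUSG00000031380; chromosome X, 163156240 to 163185646, plus strand) was at 21.5, 25.4, 24.4 and 23.8 CPM in BDL replicates 1 to 4, against 8.69, 14.1 and 9.77 CPM in sham replicates 1 to 3. Every BDL library was above every sham library, in both sexes. The means were 23.7 ± 1.63 CPM in BDL (SD, n = 4) and 10.8 ± 2.86 CPM in sham (SD, n = 3). The log2 fold change was 1.17 with an SE of 0.21 (adjusted p = 0.00866). Vegfd passed in each of the 19 alternative fits, with log2 fold changes from 0.97 to 1.34 and a highest adjusted p of 0.0451.

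Vegfc (ENSMUSG00000031520; chromosome 8, 54530257 to 54640131, plus strand) was at 11.8, 12.2, 11.6 and 11.8 CPM in BDL replicates 1 to 4, against 10.1, 13.5 and 11.2 CPM in sham replicates 1 to 3. All BDL values lay within the range of the sham values. The means were 11.9 ± 0.232 CPM in BDL (SD, n = 4) and 11.6 ± 1.69 CPM in sham (SD, n = 3). This was a log2 fold change of 0.06 with an SE of 0.18 (adjusted p = 0.848), and its sign was negative under upper quartile scaling (-0.07) and without sham replicate 1 (-0.05). Within a library the 2 ligands could be compared without any scaling. There were 0.548, 0.480, 0.477 and 0.499 Vegfc counts per Vegfd count in BDL replicates 1 to 4, against 1.17, 0.956 and 1.15 in sham replicates 1 to 3. The ratio was lower in every BDL library, with a difference of -1.12 between the mean log2 ratios (two-sided exact permutation test, p = 0.0571). This is the smallest p that 4 against 3 libraries allow, so the threshold of 0.05 cannot be reached by this test.

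**Figure D3:**
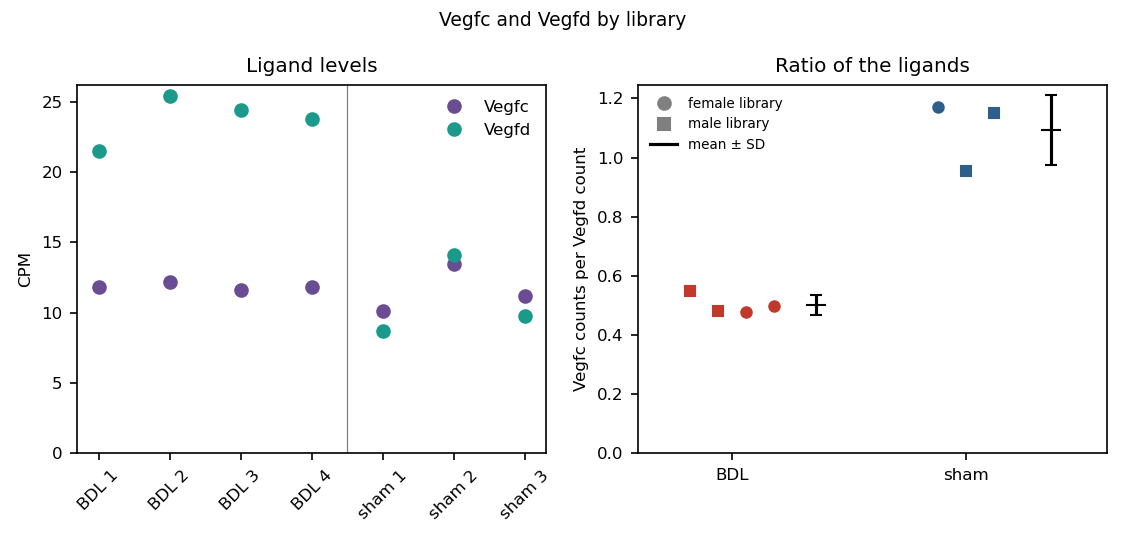
Left, CPM of Vegfc (purple) and Vegfd (green) in each library, and right, Vegfc counts per Vegfd count in BDL (red) and sham (blue) libraries, with circles for female and squares for male libraries and bars for the mean ± SD (n = 4 BDL and 3 sham). The ratio is between 0.477 and 0.548 in BDL and between 0.956 and 1.17 in sham libraries.

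Levels between genes were compared as mean CPM per kilobase of exon. In BDL the order was Lyve1 (10.1), Pdpn (8.78), Vegfd (8.33), Vegfc (4.15), Mmrn1 (2.36), Prox1 (1.90), Flt4 (1.73) and Reln (0.325). In sham it was Mmrn1 (23.2), Lyve1 (14.5), Vegfc (4.06), Vegfd (3.81), Pdpn (3.46), Flt4 (3.04), Prox1 (2.32) and Reln (1.81). Mmrn1 therefore had the highest mean level of the 8 genes in sham ducts and the fifth in BDL ducts. The ranges of Lyve1, Pdpn and Vegfd overlapped in BDL, as did those of Mmrn1, Prox1 and Flt4, whereas Reln was below every other gene in all 4 libraries. In sham the ranges of Mmrn1 and Lyve1 overlapped, both lay above the other 6 genes, and each of those 6 overlapped its neighbours in the order. With the longest transcript as the length, Vegfd came first in BDL (10.9) and Reln was at 0.659 in BDL and 3.68 in sham libraries.

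To set the 6 endothelial genes against the endothelium in each library, their counts were divided by the summed counts of 10 pan-endothelial markers. The summed markers overlapped between the groups, at 823 to 1319 CPM in BDL and 833 to 1175 CPM in sham libraries. The tight junction gene Cldn5 (log2 fold change -2.22, SE 0.26) and Mmrn2 (-0.95, SE 0.19) were lower and the other 8 had no call. On this scale Mmrn1 differed by -3.36 and Reln by -2.53 on log2, with no overlap between BDL and sham libraries (exact permutation p = 0.0571 each, adjusted p = 0.171 over the 6 genes). Pdpn differed by 1.34 and Flt4 by -0.92 (exact permutation p = 0.114 each, adjusted p = 0.171), Lyve1 by -0.61 (exact permutation p = 0.286, adjusted p = 0.343) and Prox1 by -0.66 (exact permutation p = 0.457, adjusted p = 0.457). Single libraries moved the Prox1 and Lyve1 differences, to -1.25 without BDL replicate 4 and -0.31 without BDL replicate 3 for Prox1, and to -0.32 without BDL replicate 1 and -0.30 without sham replicate 2 for Lyve1. Pecam1 supplied between 58.7% and 80.7% of the marker counts, so a scale without it was added after the data were seen. There the differences were -3.03 for Mmrn1, -2.19 for Reln, 1.68 for Pdpn, -0.58 for Flt4, -0.27 for Lyve1 and -0.32 for Prox1. Mmrn1, Reln and Pdpn did not overlap there. On a planned scale of 6 blood endothelial markers, Mmrn1 (-3.25), Reln (-2.41), Pdpn (1.46) and Flt4 (-0.80) did not overlap (exact permutation p = 0.0571 each). Lyve1 (-0.49) and Prox1 (-0.54) did overlap on it. With Pecam1 alone as the scale, only Mmrn1 and Reln did not overlap.

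**Figure D4:**
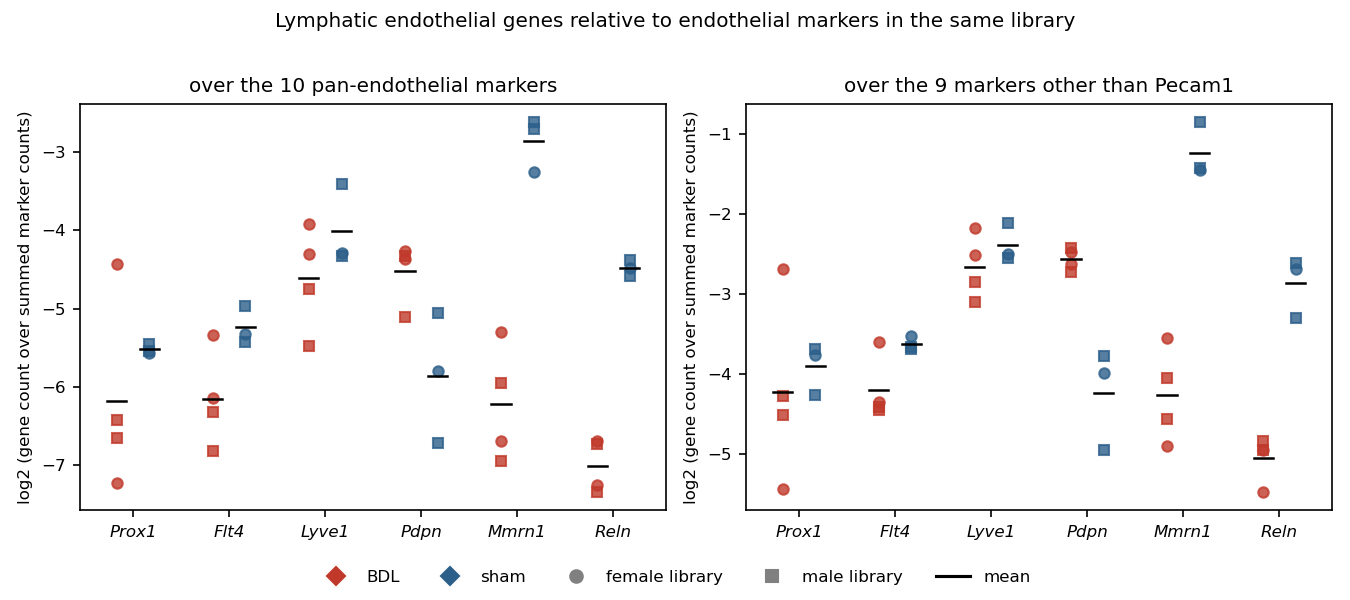
Log2 of the count of each lymphatic endothelial gene over the summed counts of the 10 pan-endothelial markers (left) or of the 9 other than Pecam1 (right), with 1 point per library, red for BDL and blue for sham, circles for female and squares for male libraries, and a line at the mean. Mmrn1 and Reln do not overlap between BDL and sham libraries on either scale, with mean differences of -3.36 and -2.53 on the left. Pdpn does not overlap on the right.

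Sex was unequal between the groups. None of the 8 genes passed the test of the sex term in edgeR, and 0 of 8 had an unadjusted p under 0.05. Over all tested genes 5 passed and 4.91% had an unadjusted p under 0.05, so the count of 0 does not set the 8 genes apart. For the surgery by sex interaction 0 of 8 genes, and 0 of all tested genes, passed in edgeR, and 2 of the 8 had an unadjusted p under 0.05, as did 6.91% of all tested genes. These were Lyve1, whose log2 change between BDL and sham was higher by 1.5 in female than in male libraries (SE 0.31, adjusted p = 0.704), and Flt4 (1.03, SE 0.36, adjusted p = 0.704). Both rest on 1 female sham library.

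Of 41 further genes of lymphatic and VEGF biology, 6 were higher, 11 were lower and 24 had no call, where 11.8% of all tested genes were higher, 11.0% lower and 22.8% called in either direction. Among 18 genes of lymphatic identity, migration and valves, 2 rose and 3 fell, close to the 22.8% of all tested genes, and the median log2 fold change was -0.26. Ccl21a, the chemokine with which lymphatic vessels draw in dendritic cells, was at 1.61, 0.678, 0.395 and 1.86 CPM in BDL replicates 1 to 4, against 75.8, 117 and 72.6 CPM in sham replicates 1 to 3 (log2 fold change -6.25, SE 0.59, adjusted p = 0.000879). Ccl21a has near-identical copies that share reads, and the sum over 4 Ccl21 genes was 1.33 to 3.51 CPM in BDL and 113 to 184 CPM in sham libraries. Its receptor gene Ccr7 fell by 3.09 on the log2 scale (SE 0.58, adjusted p = 0.0101). Ccr7 levels were low, with means of 0.19 CPM in BDL and 1.48 CPM in sham libraries. The 6 T and B lymphocyte markers were all lower in BDL and summed to between 0.312 and 0.843 CPM in BDL and between 9.04 and 23.1 CPM in sham libraries. Which cells made the Ccl21a and Ccr7 transcripts was not tested. Nr2f2, which encodes the venous factor COUP-TFII that acts with PROX1, fell by 1.12 (SE 0.19, adjusted p = 0.00633), and Calcrl, the adrenomedullin receptor, fell by 0.71 (SE 0.15, adjusted p = 0.0135). Emilin1, an elastic fibre protein that anchors lymphatic vessels, rose by 1.79 (SE 0.21, adjusted p = 0.00164), and Piezo1, a mechanosensitive channel of lymphatic valves, by 0.96 (SE 0.23, adjusted p = 0.025). The valve factor Foxc2 had 1.98 CPM in BDL and 4.24 CPM in sham libraries on average and no call (log2 fold change -1.28, SE 0.41, adjusted p = 0.0642).

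Among 10 genes of VEGF-C and VEGF-D maturation and of their other receptors, 2 rose and 3 fell (median log2 fold change 0.17). For this list and the other VEGF genes, the background is 11.8% of all tested genes higher and 11.0% lower. The proprotein convertases that cut the VEGF-C and VEGF-D precursors were higher, with Furin at 1.34 (SE 0.22, adjusted p = 0.00573) and Pcsk5 at 2.45 (SE 0.44, adjusted p = 0.00859), while Pcsk7 had no call (0.11, SE 0.14). Kdr, which encodes VEGFR2, stood at 32.1, 26.8, 30.9 and 36.8 CPM in BDL replicates 1 to 4, against 64.5, 66.4 and 87.9 CPM in sham replicates 1 to 3 (log2 fold change -1.21, SE 0.18, adjusted p = 0.0044). The coreceptor Nrp2 fell by 0.88 (SE 0.19, adjusted p = 0.017) and the matrix protein Svep1 by 0.78 (SE 0.19, adjusted p = 0.024). Ccbe1, the cofactor of VEGF-C cleavage (-0.80, SE 0.32), and its protease Adamts3 (1.11, SE 0.40) had no call. Of 5 other VEGF genes the ligands Vegfb (-1.33, SE 0.15, adjusted p = 0.00167) and Vegfa (-0.82, SE 0.15, adjusted p = 0.00805) fell, and Flt1 (-0.48, SE 0.17), Pgf (-0.88, SE 0.36) and Nrp1 (-0.21, SE 0.24) had no call. Vegfd was thus the only one of the 5 VEGF ligand genes tested to be called higher in BDL, where Vegfc and Pgf had no call.

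Among 8 genes for binding partners, 2 rose and 3 fell (median log2 fold change 0.24). The share called in either direction over all tested genes was 22.8%. The reelin receptors moved in opposite directions, with Lrp8 higher by 3.87 (SE 0.27, adjusted p = 0.000383) and Vldlr lower (-1.42, SE 0.31, adjusted p = 0.0174). Dab1, the adaptor that carries the reelin signal into the cell, fell by 1.80 (SE 0.40, adjusted p = 0.0177). The hyaluronan synthase Has2, which makes the ligand of LYVE1, was at 12.5, 17.4, 14.1 and 33.5 CPM in BDL replicates 1 to 4, against 0.25, 0.373 and 0.0537 CPM in sham replicates 1 to 3 (log2 fold change 6.23, SE 0.68, adjusted p = 0.00135). Clec1b, the podoplanin receptor of platelets, was at 5.75 CPM in BDL replicate 4 and at most 0.979 CPM in the other 6 libraries, with no call. BDL replicate 4 also had the highest sum of hepatocyte markers. Which cells made the Clec1b transcripts was not tested.

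Several of these calls did not hold with fewer libraries, although the directions did. Ccr7 lost its call without sham replicate 1 (adjusted p = 0.0751), as did Dab1 (adjusted p = 0.111), and Calcrl lost it without BDL replicate 1 (adjusted p = 0.055). Nrp2 lost it without BDL replicate 1 or 2 or sham replicate 1 or 3 (adjusted p = 0.0651, 0.0595, 0.0628 and 0.0622), and Svep1 without BDL replicate 1 or 2 or sham replicate 2 or 3 (adjusted p = 0.0892, 0.0765, 0.0658 and 0.0602). Piezo1 lost it without BDL replicate 1 or 2 (adjusted p = 0.0623 and 0.0796) and without sham replicate 1, 2 or 3 (adjusted p = 0.0639, 0.0802 and 0.087). Vldlr lost it without BDL replicate 1 or 2 (adjusted p = 0.0703 and 0.052) and without sham replicate 1, 2 or 3 (adjusted p = 0.0502, 0.0501 and 0.0564). Over all alternatives the adjusted p ran from 1.32e-05 to 0.0751 for Ccr7, 3.45e-05 to 0.111 for Dab1, 0.00019 to 0.269 for Calcrl, 0.00049 to 0.142 for Nrp2, 0.000757 to 0.226 for Svep1, 0.00138 to 0.134 for Piezo1 and 3.70e-05 to 0.0703 for Vldlr. Where single libraries were left out and the call was lost, the log2 fold change was -0.93 to -0.80 for Nrp2, -0.79 to -0.67 for Svep1, 0.83 to 1.09 for Piezo1, -1.63 to -1.28 for Vldlr, -2.98 for Ccr7, -1.17 for Dab1 and -0.65 for Calcrl. Without BDL replicates 2 and 3 together the calls of Vegfa (log2 fold change -0.83, adjusted p = 0.0506), Calcrl (-0.71, adjusted p = 0.0717), Nrp2 (-0.75, adjusted p = 0.0806), Dab1 (-1.88, adjusted p = 0.0705) and Piezo1 (0.64, adjusted p = 0.105) were lost, and without BDL replicates 1 and 4 that of Svep1 (-0.63, adjusted p = 0.104). Vegfa was also lost in the test against a 1.5-fold change (adjusted p = 0.126), with 2.08e-06 its lowest adjusted p. With the acinar covariate, Svep1 (log2 fold change -0.70, adjusted p = 0.0871) and Dab1 (-1.48, adjusted p = 0.0896) lost their calls although no library was left out. Flt1 passed without BDL replicate 3 (adjusted p = 0.0364), where the alternatives spanned 0.0313 to 0.768.

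**Figure D5:**
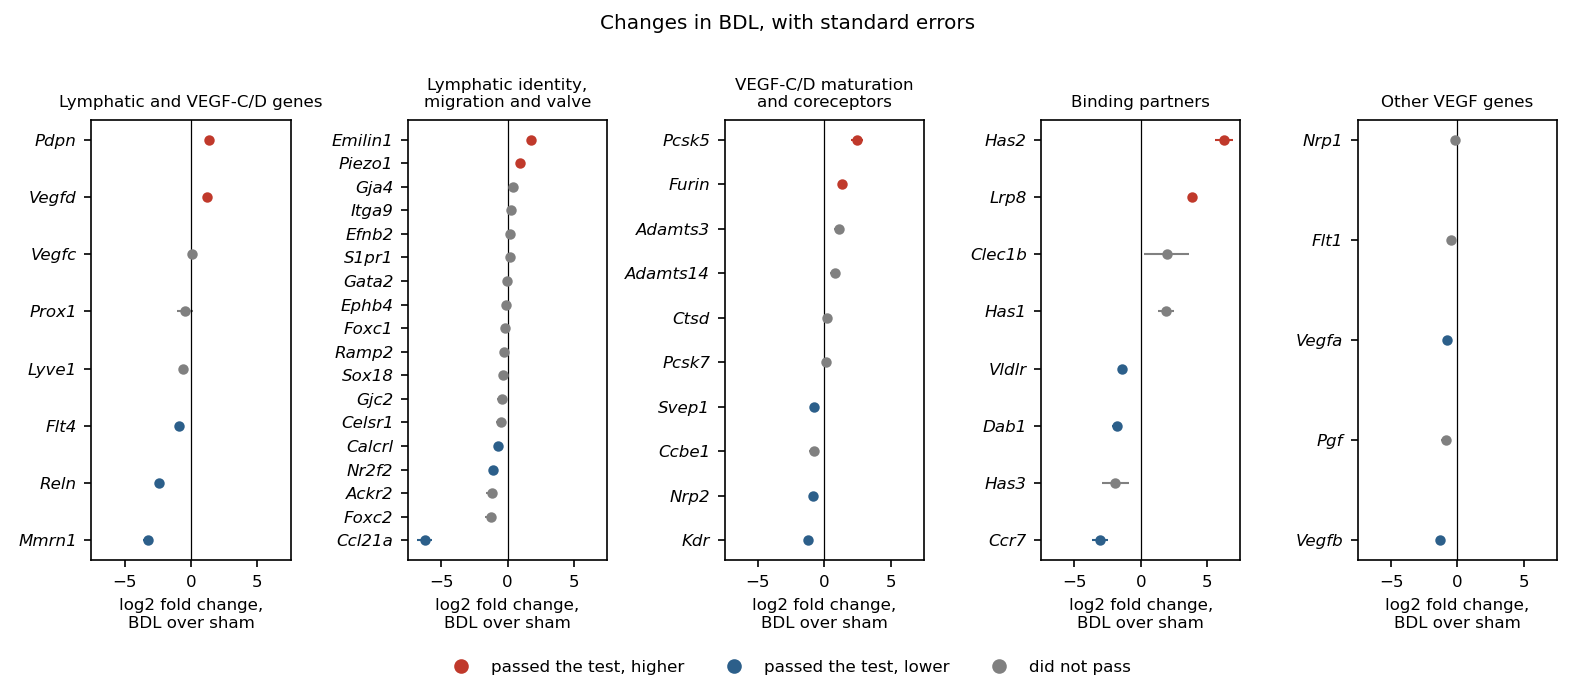
Log2 fold changes of BDL over sham (x axis) with standard errors for the 8 genes and for the 4 lists of related genes, ordered within each panel from highest (top) to lowest, in red where a gene passed the test and was higher, in blue where it passed and was lower, and in grey where it did not pass. Mmrn1 (-3.25) and Reln (-2.44) are the lowest of the 8 genes, and Ccl21a (-6.25) and Has2 (6.23) are the extremes of the lists.

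Likeness of profiles was measured as the root mean square difference of log2 CPM, centred on each gene's mean, over the 7 libraries. Among the 8 genes the closest pairs were Lyve1 and Flt4 (0.26) and Pdpn and Vegfd (0.26), and Mmrn1 and Pdpn were the farthest apart (2.41). Mmrn1 and Reln differed by 0.54. Among 13838 other genes, Mmrn1 was nearest to Lgals12 (0.34), Insrr (0.38) and Abca8a (0.40), and Reln to Col4a6 (0.25), Gucy1a1 (0.27) and Fibin (0.28). Pdpn was nearest to H4c4 (0.09), Zfp52 (0.13) and the cathepsin K gene Ctsk (0.15). Insrr and Fibin averaged only 0.399 and 0.323 CPM in BDL, and H4c4 only 0.83 CPM in sham libraries. Vegfd was nearest to Sh3bgrl3 (0.07), the type I collagen gene Col1a2 (0.08) and Blvra (0.08). Flt4 was nearest to Rogdi (0.08), Pgpep1 (0.10) and Farp2 (0.11), Vegfc to Entrep3, Mrm2 and Dctn6 (0.05 each), Lyve1 to Lppos (0.13), Zbtb11os1 (0.13) and Zfp979 (0.15), and Prox1 to Nudt12 (0.27), Chchd10 (0.27) and Gpcpd1 (0.28). Lgals12 is known from fat cells, so 5 adipocyte markers were listed after the data were seen. They summed to 25.8, 2.13, 15.5 and 82.7 CPM in BDL replicates 1 to 4, against 138, 686 and 597 CPM in sham replicates 1 to 3, and 3 of 5 were lower. The part of fat tissue in the fall of Mmrn1 was not tested.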

How the data were processed

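RNA of whole ducts was made into libraries by the authors with a SMART-Seq mRNA kit, which does not mark strand, so a gene cannot be told apart from an overlapping gene on the other strand. Prox1, Reln, Flt4 and Vegfc overlap such genes, Pcsk7 overlaps Tagln on the other strand, and Piezo1 and Clec1b overlap other genes. The authors quantified reads with Salmon against GRCm39 transcripts and added transcripts up per gene. The deposited table gives these estimated counts as whole numbers without normalization.

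Names and coordinates came from GENCODE vM39 on GRCm39, which matched 55563 of 56065 identifiers, and the other 502 held 0.0335% of counts. The main model was edgeR's quasi-likelihood F test (edgeR 4.0.16, R 4.3.3) with surgery and sex as additive factors and TMM library sizes, which left 4 residual degrees of freedom. Genes below 10 counts in total were dropped, p-values were adjusted by Benjamini-Hochberg over all tested genes, and 0.05 was the threshold. Adjusted p-values of genes come from this model or the alternative named beside them. The endothelial ratios (count plus 0.5) used exact permutation over 35 arrangements and adjustment over 6 genes. Profile distances used a prior count of 2. The edgeR fit was checked on simulated counts in which all genes had the same spread. The simulation held no sex differences and no unequal amounts of neighbouring-organ transcripts. Every pair of libraries differed beyond sampling noise, with a chi-square per degree of freedom of 225.3 or more.

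The 8 genes, the lists and the tests were chosen with earlier results of these data known. Named were all 8 genes, and from each list up to 4 genes by smallest p and those that moved against it. The 3 nearest profiles were taken among genes that are not predicted genes and have a mean of at least 1 CPM over the 7 libraries. Foxc2, Pcsk7, Ccbe1, Adamts3, Nrp1, Clec1b, Gp9, Pf4, Ppbp, Stab2 and Clec4g were named after their values were seen, as were Oit3 and further called genes. The alternatives were 2 other scalings (RLE, upper quartile), 2 other low-count filters, 2 other tools (DESeq2 1.42.0 and limma-voom of limma 3.58.1), no sex term, neighbouring-tissue genes left out, an acinar covariate, a test against 1.5-fold (glmTreat), libraries left out singly or in pairs, and other endothelial scales and lengths.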

Additional observations from a re-analysis of the deposited data

Results flagged for a closer look

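Of 34 sets of 4 BDL values (the 8 genes, the named genes of the related lists and the ratios), 3 held a library that lay far from the other 3 by Dixon's test, with gaps to the next library of 0.852 to 0.872 of the whole range. Chance gives such a value in about 1 of 20 sets. Reln was at 6.70 CPM in BDL replicate 3, against 7.96 CPM in the next library, and all 4 BDL libraries were still below the sham libraries. Emilin1 was at 110 CPM in BDL replicate 1, against 131 CPM in the next library. The log2 ratio of Pdpn to the pan-endothelial markers was -5.11 in BDL replicate 1, against -4.37 in the next library, and BDL replicate 1 was also the library in which Pecam1 supplied 80.7% of the marker counts.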

How the results depend on the processing

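Mmrn1, Reln and Vegfd kept their direction and their call in all 19 alternatives. Pdpn kept its direction and lost its call in 4, and Flt4 lost it in 7. Prox1 changed sign without BDL replicates 2 and 3 (log2 fold change 0.06), and Vegfc did so under upper quartile scaling (-0.07) and without sham replicate 1 (-0.05), with a range of -0.05 to 0.12 over single libraries left out. Upper quartile scaling moved the median log2 fold change of all genes to -0.13, against -0.01 under TMM. Members called higher numbered 1 without BDL replicates 2 and 3 and in the test against 1.5-fold, and 1 to 2 when single libraries were left out. Genes called higher over all genes numbered 1274 in the test against 1.5-fold and 1678 to 3152 when single libraries were left out, with the lower values without BDL replicate 1 (1678), BDL replicate 2 (1772) and sham replicate 3 (1743). Genes called lower numbered 1692 without BDL replicates 2 and 3, 4178 in DESeq2, 1452 against 1.5-fold and 1431 to 2883 when single libraries were left out. Genes of the 4 related lists called lower numbered 7 without BDL replicates 2 and 3, 6 against 1.5-fold and 7 to 12 when single libraries were left out, with 7 without BDL replicate 1. The cause of these changes was not tested. No paired analysis was possible because the replicate numbers in the labels are sample numbers that the groups do not share. With 4 against 3 libraries the exact tests of the ratios cannot pass the threshold. The scale without Pecam1 and the adipocyte list were added after the data were seen.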
